A study of Mus musculus with 4 samples.

Results

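Interferon gamma, the receptors for interferon gamma and for the type I interferons, and the transcription factors that act below those receptors were described here in the immune cells of mouse livers. The set holds 9 genes, chosen by symbol out of 31053 in the count matrix: Ifng itself, the receptor genes Ifngr1, Ifngr2, Ifnar1 and Ifnar2, and the transcription factor genes Stat2, Irf9, Irf1 and Irf8. All 9 had UMIs (counted RNA molecules) in each of the 4 libraries. The Ex group is 2 libraries, Ex 1 and Ex 2, from exercised mice, and the Sed group is 2 libraries, Sed 1 and Sed 2, from sedentary mice. Every mouse was male, labelled as 8 weeks old, carried tumours of MC38, a mouse colon carcinoma cell line, and was killed 3 weeks after tumour injection, so both groups describe tumour-bearing animals. By the series' design text both groups were studied after surgical stress in a setting of liver metastasis, and the exercise was given before surgery. Non-parenchymal cells were prepared from the livers, and CD45+ leukocytes were picked with beads and sequenced as droplet 3' libraries. The mouse strain, the exercise schedule and the number of animals behind a library are not given in the sources used here, so p-values measure the spread between these libraries, which may be technical.

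Interferon gamma is made mainly by T cells, NK cells and type 1 innate lymphoid cells, and it drives macrophages to present antigen and to release chemokines. Its receptor is built from the ligand-binding chain Ifngr1 and the signalling chain Ifngr2, and cells need both chains to respond. Type I interferons act on nearly all cells through Ifnar1 and Ifnar2. Below that receptor, Stat2 and Irf9 join in the complex ISGF3, which binds the interferon-stimulated response element (ISRE) of genes such as Ifit3 and Isg15. Irf1 is switched on rapidly by interferon gamma through a gamma-activated site (GAS), and Irf8 is needed for the development of type 1 conventional dendritic cells and monocytes. In the liver, resident macrophages, the Kupffer cells, and NK and T cells of the sinusoids are the best known partners in interferon gamma signalling.

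After filtering, 5763 and 4097 cells were kept in Ex 1 and Ex 2, against 6839 and 7141 in Sed 1 and Sed 2, with medians of 3749, 3701, 3284 and 3286 UMIs per cell in that order. Any pair of libraries shared between 6 and 16 cell barcodes. The cells were clustered without the 9 genes and named from marker genes, and a name ending in "-like" rests on those markers only. Clusters that met no marker rule are called by their leading genes. Levels are CPM, the gene's UMIs in the summed counts of a class scaled to a class total of 1000000. Levels of different genes are not set against each other, and in a class sum fewer producing cells and less RNA per cell cannot be told apart. The libraries differed in make-up: neutrophil-like cells were 2.59% and 1.83% of kept cells in Ex 1 and Ex 2, against 26.8% and 11.5% in Sed 1 and Sed 2. That share leaves out a cluster led by Acod1 and Hcar2, which scored highest on the neutrophil list but kept no name. It held 429 and 287 cells in Ex 1 and Ex 2, against 400 and 429 in Sed 1 and Sed 2. Median mitochondrial shares were 3.92% and 4.35% in the Ex libraries, against 2.61% and 2.95% in the Sed libraries, and their part in the results below was not tested.

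Among 22 classes and clusters set in order, Ifng (ENSMUSG00000055170, GRCm38 chromosome 10, 118441046 to 118445892) had its highest level in a T cell cluster led by Mmp9 and Cd40lg. Its summed level there was 661 and 671 CPM in Ex 1 and Ex 2, against 590 and 598 CPM in Sed 1 and Sed 2. The summed erythroid genes were at 13932 and 14.0 CPM in this cluster in Ex, against 18.4 and 33.6 CPM in Sed, and their part in its Ifng level was not tested. This cluster met the naming rule of no marker list. Its highest score was on the erythroid list (2.445), with 0 markers detected, and its second highest on the ILC1 list (1.274). Of its cells, 72.6% and 74.6% in the Ex libraries and 70.8% and 66.7% in the Sed libraries had a UMI of Cd3e, a T cell receptor signalling chain, and it also held Klrb1c (NK1.1), the liver homing receptor gene Cxcr6 and Zbtb16, the transcription factor of innate-like T cells. The range over its 4 libraries lay apart from that of the next class, ILC1-like cells, where Ifng was at 249 and 424 CPM in Ex and at 294 and 231 CPM in Sed. Effector CD8 T-like cells, led by Gzmk and Lag3, came next with 237 and 277 CPM in Ex, from only 8 and 10 cells, against 256 and 241 CPM in Sed, from 232 and 426 cells.

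NK-like cells had 203 and 188 CPM of Ifng in Ex, against 192 and 317 CPM in Sed, and cycling lymphocytes had 212 and 117 CPM in Ex, against 217 and 167 CPM in Sed. The ranges of these 4 classes overlapped from each to the next, so their order is not resolved. They lay above Treg-like cells, which had 93.8 and 38.8 CPM in Ex, against 21.5 and 57.9 CPM in Sed. Every other class in the order of 22 averaged under 20 CPM over the 4 libraries. This order leaves out named classes with under 5 cells in a library and unnamed clusters with under 30. It also leaves out lymphocyte or dendritic clusters that scored highest on the list of another cell type. Those mixed clusters held 8.16% and 4.56% of the Ifng UMIs in Ex, against 3.98% and 14.9% in Sed. B-like cells, neutrophil-like cells, classical monocyte-like cells and Kupffer-like cells together had an Ifng UMI in 0.276% and 0.303% of cells in Ex, against 0.106% and 0.173% in Sed. No Ifng UMI was found in the 194 plasmacytoid dendritic-like (pDC-like) cells, the 240 type 1 dendritic-like (cDC1-like) cells or the 460 other macrophage-like cells of all libraries, which allows levels of up to 2.65, 1.48 and 0.773 CPM.

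**Figure D1:**
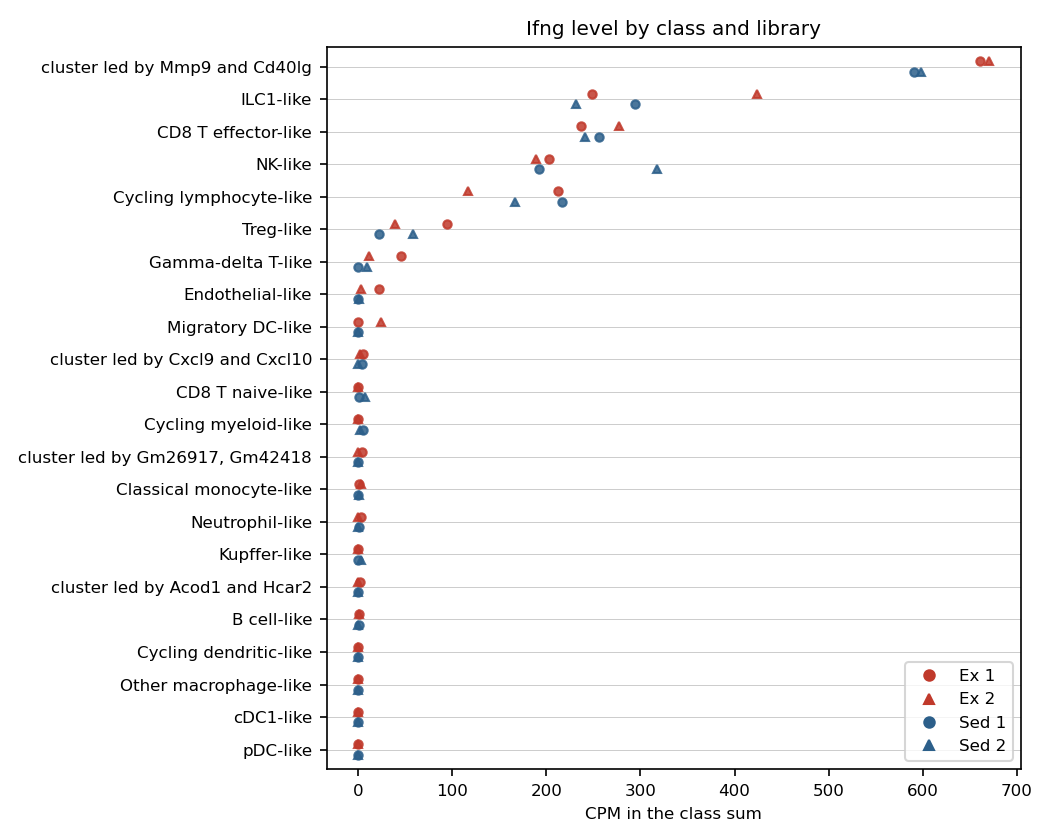
Ifng level (CPM of the summed counts) in 22 classes and clusters, a point per library, Ex above Sed in each row. The cluster led by Mmp9 and Cd40lg sits between 590 and 671 CPM, apart from all other classes shown, and myeloid and B-like cells sit at or near 0. Mixed clusters and unnamed clusters with under 30 cells in a library are not shown.

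Ifng was also read per cell. In the cluster led by Mmp9 and Cd40lg, 52.2% and 59.2% of cells had an Ifng UMI in Ex, against 45.8% and 58.0% in Sed. Cells with at least 2000 UMIs were then thinned to 2000 and all others were left out, so the thinned shares cover the deeper cells only. In these cells the Ifng shares were 41.7% (95% interval 32.7 to 51.0%, exact binomial, counting error only) and 44.9% (35.2 to 54.8%) in Ex, against 35.9% (21.2 to 52.8%) and 58.5% (42.1 to 73.7%) in Sed. NK-like cells had thinned Ifng shares of 26.3% and 21.7% in Ex, against 28.5% and 34.4% in Sed, and ILC1-like cells 24.3% and 33.3% in Ex, against 32.1% and 31.9% in Sed. At this common depth the libraries of the groups overlapped in the first and last of these classes, and in NK-like cells both Ex libraries were lower than both Sed libraries.

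The cells that held the Ifng RNA differed between the groups. The cluster led by Mmp9 and Cd40lg held 24.2% (95% interval 21.9 to 26.7%) of the 1299 Ifng UMIs of Ex 1 and 36.4% (33.0 to 39.8%) of the 789 of Ex 2, against 10.1% (8.22 to 12.1%) of the 955 of Sed 1 and 11.2% (9.23 to 13.3%) of the 959 of Sed 2. Effector CD8 T-like cells held 0.462% (0.17 to 1.00%) and 1.65% (0.88 to 2.80%) in Ex, against 30.6% (27.7 to 33.6%) and 35.1% (32.1 to 38.3%) in Sed. Neither pair of groups overlapped, and an exact 2-sided permutation test of 2 libraries against 2 gave p = 0.333 for both, the smallest it can give. The intervals count each UMI as a separate draw, although a cell can hold several, so they leave out the sampling of cells and are too narrow. The effector CD8 T-like shares in Ex came from 8 and 10 cells. NK-like cells held 13.6% and 12.5% of the Ifng UMIs in Ex, against 17.3% and 9.91% in Sed, ILC1-like cells 5.62% and 14.1% in Ex, against 8.06% and 12.6% in Sed, and cycling lymphocytes 18.2% and 7.48% in Ex, against 21.0% and 10.0% in Sed. These 3 sources overlapped between the groups. At a clustering resolution of 2 the first of these clusters held a mean of 0.933% of the Ifng UMIs in Ex, against 0.628% in Sed, so its share depends on how the T cells are divided.

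The share of cells followed the same pattern. The cluster led by Mmp9 and Cd40lg was 2.72% and 3.17% of kept cells in Ex, against 0.702% and 0.966% in Sed, and effector CD8 T-like cells were 0.139% and 0.244% in Ex, against 3.39% and 5.97% in Sed. A further T cell cluster, led by Ly6c2 and Sidt1, was 5.31% and 4.22% of cells in Ex, against 0.702% and 0.392% in Sed, and it held 9.01% and 7.35% of the Ifng UMIs in Ex, against 2.62% and 0.73% in Sed. It scored highest on the marker list of naive-like CD8 T cells but kept no name under the naming rule. Over all kept cells Ifng was at 45.0 and 37.9 CPM in Ex, against 29.0 and 26.9 CPM in Sed (41.4 ± 5.0 and 28.0 ± 1.5, SD, n = 2 each, exact permutation p = 0.333).

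**Figure D2:**
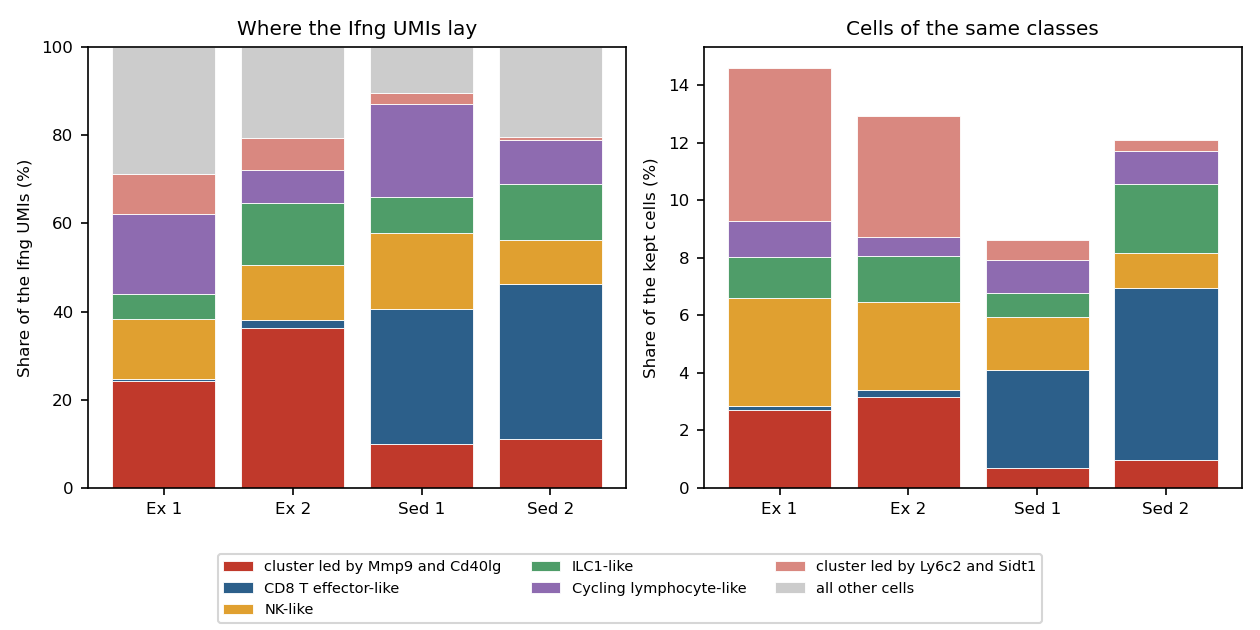
Left, share of each library's Ifng UMIs (%) by class, stacked. Right, share of the kept cells (%) in the same classes. Effector CD8 T-like cells hold 30.6% and 35.1% of the Ifng UMIs of the Sed libraries and at most 1.65% of those of the Ex libraries, and the cluster led by Mmp9 and Cd40lg holds 24.2% and 36.4% in Ex.

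Within a class, no Ifng test passed at the settings used here. The count model (edgeR's quasi-likelihood test on summed counts, adjusted over all genes of the class, threshold 0.05) gave a log2 change of Ifng, Ex over Sed, of 0.03 ± 0.28 (SE, edgeR adjusted p = 0.985) in the cluster led by Mmp9 and Cd40lg, 0.22 ± 0.27 (edgeR adjusted p = 0.839) in ILC1-like, -0.46 ± 0.24 (edgeR adjusted p = 0.376) in NK-like and 0.81 ± 0.50 (edgeR adjusted p = 0.714) in Treg-like cells. In Treg-like cells the change was 0.35 to 1.83 over 10 other settings and passed in 1 of them, at resolution 0.5 (1.76, edgeR adjusted p = 0.0359). Effector CD8 T-like cells were too few in Ex for a test.

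The genes whose class means were most like those of Ifng over the 22 classes, of 11603 compared, were the death ligand gene Fasl (Pearson r of log2(CPM + 1) = 0.97), Sytl2, which acts in granule release (r = 0.97), the receptor genes Cd160 (r = 0.95) and Klrc1 (r = 0.95), and the granzyme gene Gzmb (r = 0.94). Fasl and Sytl2 had, like Ifng, their highest mean in the cluster led by Mmp9 and Cd40lg, and Cd160, Klrc1 and Gzmb had theirs in ILC1-like cells. For Irf8 they were Ccdc122 (r = 0.85), Ptms (r = 0.82), BC035044 (r = 0.81), Ywhag (r = 0.80) and Ywhae (r = 0.80). The classes come from the same 4 libraries, so these are descriptions with no test.

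Few of 13 genes listed as drivers of Ifng expression passed in the classes with the most Ifng. In NK-like cells 1 of 11 tested members rose and none fell: Il18r1, the receptor chain for interleukin 18, was at 203 and 202 CPM in Ex, against 61.6 and 60.1 CPM in Sed, a log2 change of 1.57 ± 0.25 (edgeR adjusted p = 0.00394). Of all genes tested in NK-like cells 0.173% rose and 0.299% fell. No member of that list passed in ILC1-like cells or in the cluster led by Mmp9 and Cd40lg.

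The chains of the interferon gamma receptor were spread differently. Ifngr1 (ENSMUSG00000020009, chromosome 10, 19591949 to 19610229) was highest in gamma-delta T-like cells, at 430 and 1041 CPM in Ex, against 891 and 913 CPM in Sed, and in Treg-like cells, at 513 and 580 CPM in Ex, against 586 and 898 CPM in Sed. The gamma-delta T-like levels came from 51 and 20 cells in Ex, against 11 and 41 in Sed. NK-like cells followed with 637 and 914 CPM in Ex, against 336 and 511 CPM in Sed. The ranges overlapped from each class to the next down to cycling myeloid cells in rank 15. At the low end pDC-like cells had 17.8 and 25.4 CPM in Ex, against 0 and 5.54 CPM in Sed, apart from the next class, migratory dendritic-like cells. These pDC-like levels came from 89 and 48 cells in Ex, against 18 and 39 in Sed. No limit was computed for the 0.

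Ifngr2 (ENSMUSG00000022965, chromosome 16, 91547072 to 91565623) was highest in macrophage-like and monocyte-like cells. Other macrophage-like cells had 149 and 216 CPM in Ex, against 107 and 113 CPM in Sed, and an unnamed myeloid cluster led by the interferon-induced chemokine genes Cxcl9 and Cxcl10, which scored first on the classical monocyte list and next on the list of other macrophages, had 152 and 153 CPM in Ex, against 106 and 122 CPM in Sed. Classical monocyte-like cells averaged 128 CPM and Kupffer-like cells 127 CPM over the 4 libraries, and these ranges overlapped. Ifngr2 was lowest in the classes that held the Ifng. It had 0 UMIs in NK-like cells of both Ex libraries and of Sed 2, and 1.16 CPM in Sed 1. The cluster led by Mmp9 and Cd40lg had 0 and 2.34 CPM in Ex, against 6.15 and 0 CPM in Sed, and ILC1-like, effector CD8 T-like, cycling lymphocyte and Treg-like cells averaged 0.477 to 3.81 CPM. Naive-like CD8 T cells, at 25.2 and 45.0 CPM in Ex, against 28.2 and 29.9 CPM in Sed, had a range apart from all of these. Effector CD8 T-like cells were only 8 and 10 cells in Ex, and no limit from counts was computed. Their distance from naive-like cells is therefore not resolved in Ex.

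**Figure D3:**
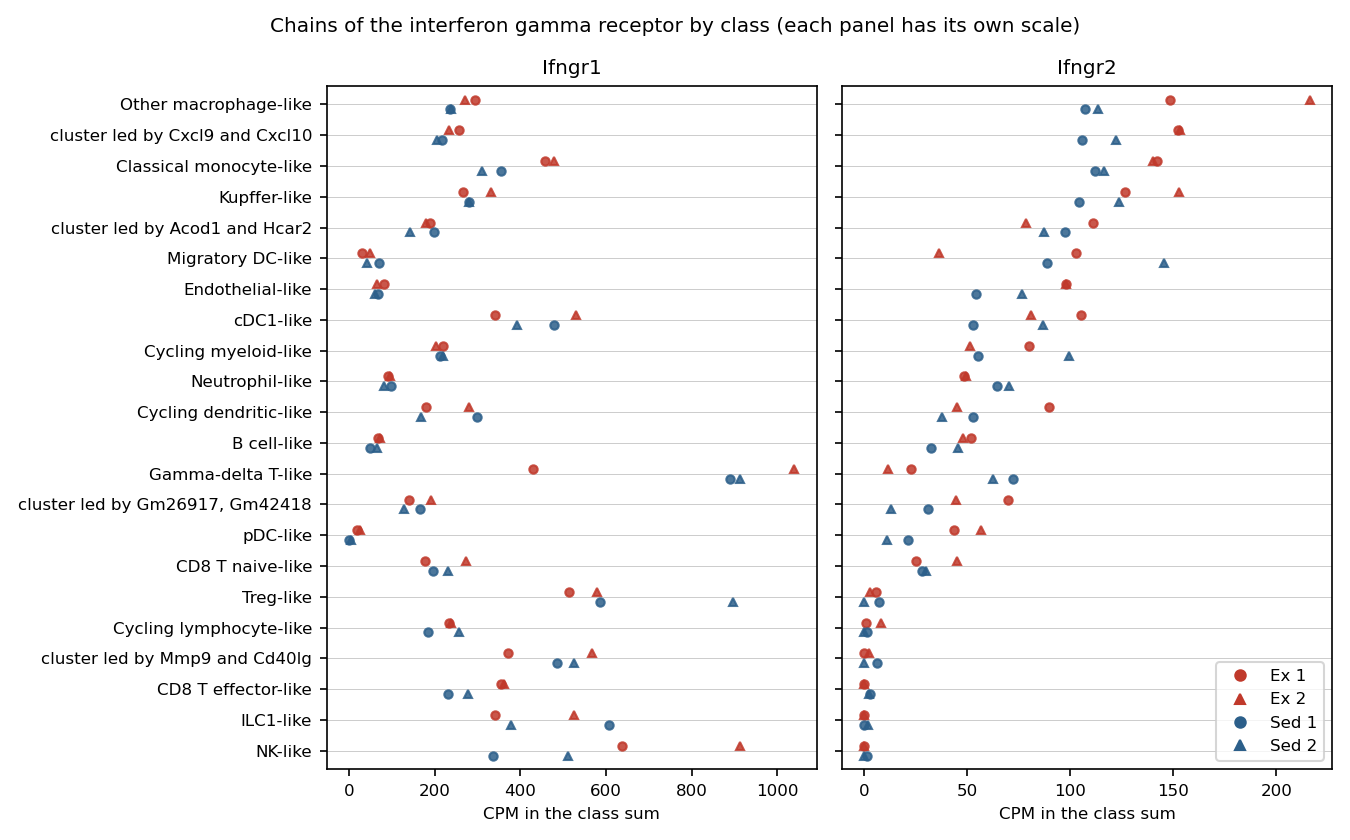
Levels (CPM of the summed counts) of Ifngr1 and Ifngr2 in 22 classes, ordered by Ifngr2, a point per library, with a separate axis for each gene. The 6 lowest classes for Ifngr2 average at most 3.81 CPM. Their Ifngr1 means lie between 228 and 644 CPM, and the levels of these genes are not set against each other.

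Both chains of the type I interferon receptor were highest in pDC-like cells, themselves known as strong producers of type I interferon. Ifnar1 (ENSMUSG00000022967, chromosome 16, 91485238 to 91507441) was at 234 and 251 CPM there in Ex, against 298 and 216 CPM in Sed, apart from the next class, other macrophage-like cells, with 100.1 and 127 CPM in Ex, against 67.5 and 86.5 CPM in Sed. Ifnar2 (ENSMUSG00000022971, chromosome 16, 91372783 to 91405589) was at 214 and 265 CPM in pDC-like cells in Ex, against 277 and 194 CPM in Sed, and overlapped the next class, other macrophage-like cells, with 168 and 199 CPM in Ex, against 123 and 179 CPM in Sed. Neutrophil-like cells were lowest for Ifnar1, at 14.7 and 6.16 CPM in Ex, against 28.1 and 20.1 CPM in Sed, and naive-like CD8 T cells for Ifnar2, with a mean of 23.6 CPM. Ifnar2, Ifnar1 and Ifngr2 lie within the same stretch of chromosome 16.

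Irf8 (ENSMUSG00000041515, chromosome 8, 120736358 to 120756694) gave the clearest order of all members. It was at 3935 and 3721 CPM in pDC-like cells of Ex, against 4369 and 3418 CPM in Sed, and at 2438 and 2613 CPM in cDC1-like cells of Ex, against 2084 and 2318 CPM in Sed. Each of these 2 classes lay apart from the next. Cycling dendritic-like cells averaged 1287 CPM, migratory dendritic-like cells 1205 CPM and NK-like cells 662 CPM, with ranges that overlapped in turn. Kupffer-like cells averaged 289.7 CPM, and naive-like CD8 T cells were lowest, at a mean of 4.16 CPM.

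Stat2 (ENSMUSG00000040033, chromosome 10, 128270559 to 128292849) was highest in pDC-like cells, at 192 and 118 CPM in Ex, against 256 and 194 CPM in Sed, and lowest in NK-like cells, which averaged 15.3 CPM. Irf1 (ENSMUSG00000018899, chromosome 11, 53770014 to 53778374) was highest in a cluster led by Acod1 and Hcar2 that scored as neutrophils, at 457 and 430.1 CPM in Ex, against 698 and 307 CPM in Sed, followed by migratory dendritic-like cells, at 493 and 567 CPM in Ex, against 213 and 302 CPM in Sed. Irf9 (ENSMUSG00000002325, chromosome 14, 55603571 to 55610030) was highest in the same cluster, at 89.6 and 73.7 CPM in Ex, against 144 and 123 CPM in Sed, and its class means lay between 37.1 and 108 CPM. For these 3 genes the ranges of the first and second class overlapped. Migratory dendritic-like levels came from clusters with as few as 5 cells in a library.

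Exercised and sedentary livers were then compared within 13 classes and clusters that held at least 30 cells in every library. Of 117 combinations of a member and a class, 94 passed the filter on low counts. Of these, 6 passed the test, all lower in Ex, which is 6.38% against 3.81% of the 79438 gene and class combinations tested (2.04% lower and 1.77% higher). No member was called higher in Ex. By unadjusted p under 0.05, 11 combinations were higher and 10 lower, and DESeq2's Wald test called 1 higher. The groups did not overlap in 48 of the 94 combinations, or 51.1%, against 47.8% of all. Irf9 had a negative log2 change in all 12 classes where it was tested, with a median of -0.42, Stat2 in 6 of 9, and Irf1 had a positive one in 11 of 13, with a median of 0.35. The classes share the same libraries, so these counts are not independent.

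**Figure D4:**
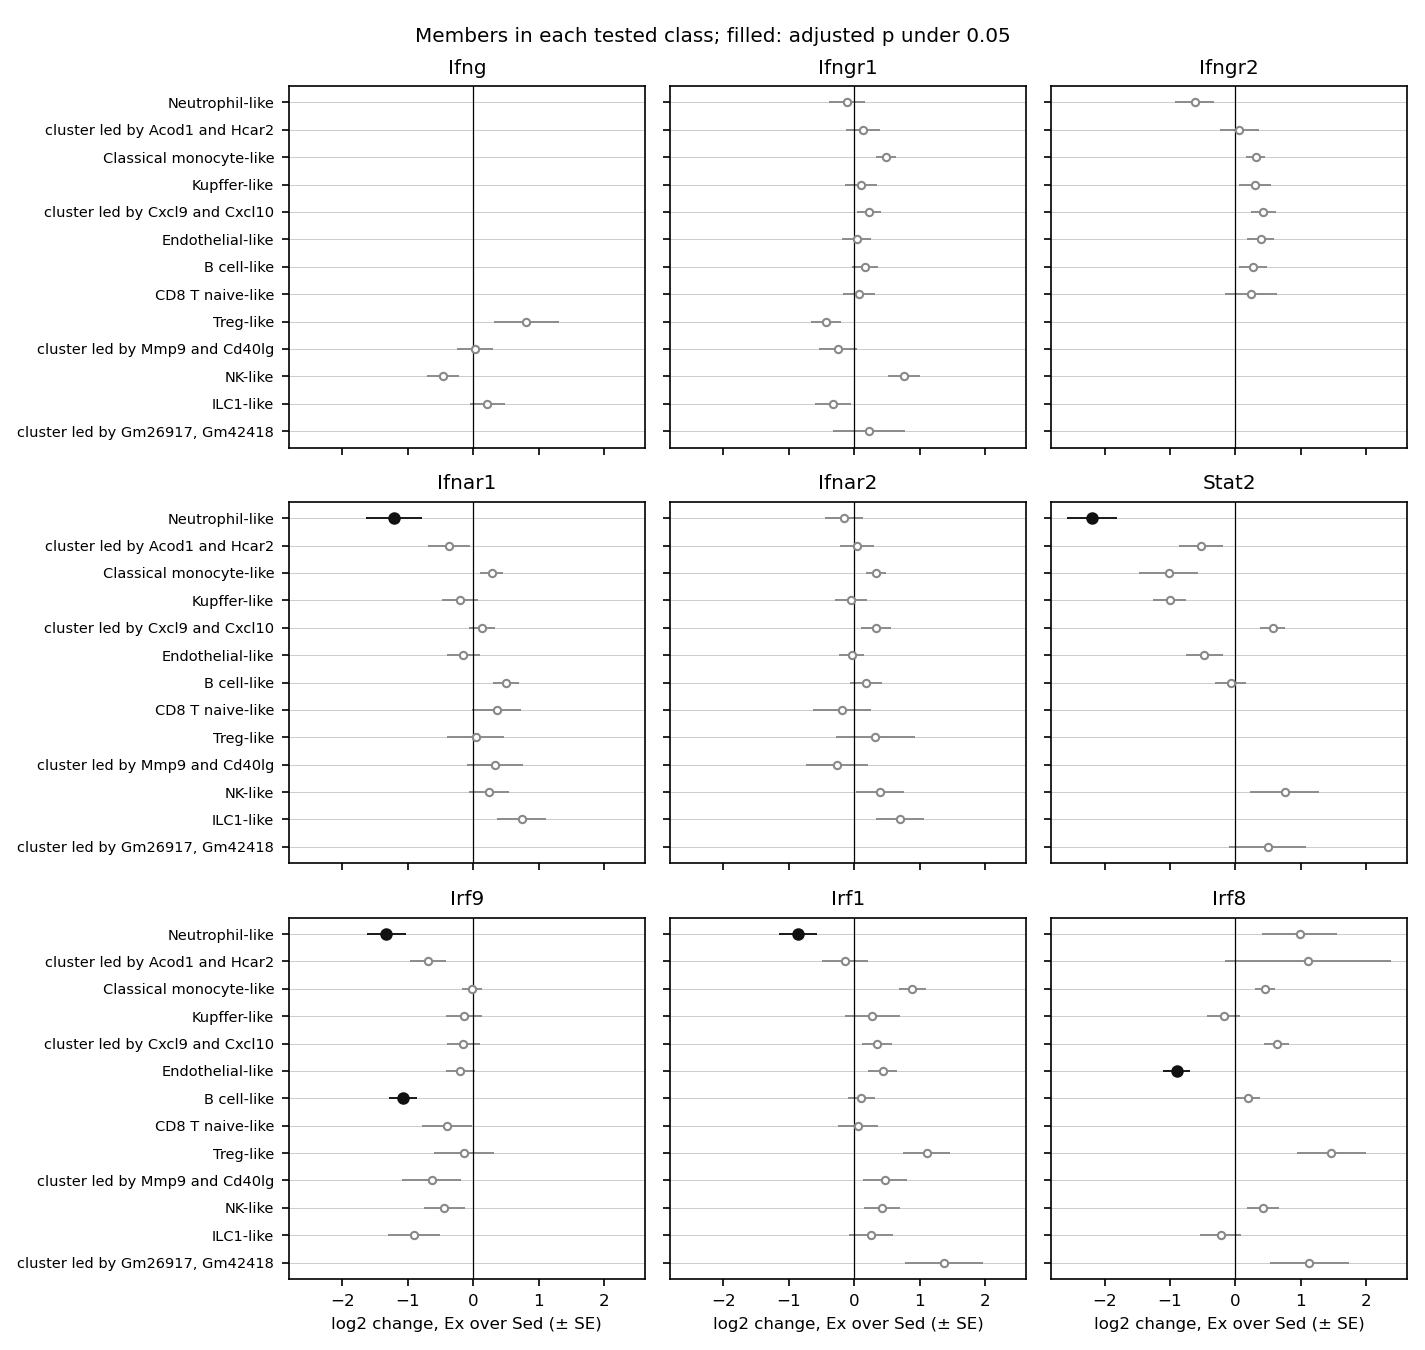
Log2 change, Ex over Sed, with its standard error for each member in each tested class. Filled points passed the test. The filled points, 4 in neutrophil-like cells, 1 in B-like cells and 1 in endothelial-like cells, all lie left of 0.

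Neutrophil-like cells held 4 of the 6. Stat2 was at 10.1 and 12.3 CPM in Ex, from 11 and 6 UMIs in 149 and 75 cells, against 50.2 and 38.9 CPM in Sed, from 322 and 87 UMIs in 1831 and 819 cells, a log2 change of -2.19 ± 0.38 (edgeR adjusted p = 5.44e-05). Irf9, its partner in ISGF3, was at 39.5 and 43.1 CPM in Ex, against 97.4 and 85.9 CPM in Sed, a log2 change of -1.32 ± 0.30 (edgeR adjusted p = 0.00106). Irf1 was at 74.3 and 63.7 CPM in Ex, against 144 and 84.6 CPM in Sed (-0.87 ± 0.29, edgeR adjusted p = 0.0293), and Ifnar1 was at 14.7 and 6.16 CPM in Ex, against 28.1 and 20.1 CPM in Sed (-1.21 ± 0.43, edgeR adjusted p = 0.0425). In each of the 4 both Ex libraries lay below both Sed libraries. Of all genes tested in this class 10.2% fell, 10.5% rose and 58.4% had groups that did not overlap, so such a difference was common in it. Over 13 other settings Stat2 and Irf9 passed in 12 each, Irf1 in 5 and Ifnar1 in 4, and Irf1 turned to a positive change at clustering resolutions of 0.5 and 2. Ifnar2, Ifngr1, Ifngr2 and Irf8 did not pass. The cluster led by Acod1 and Hcar2, which scored as neutrophils, is not in this class, and no member passed in it. There the log2 change was -0.53 ± 0.33 for Stat2 (edgeR adjusted p = 0.836) and -0.69 ± 0.27 for Irf9 (edgeR adjusted p = 0.666). It was -0.15 ± 0.35 for Irf1 (edgeR adjusted p = 0.977) and -0.37 ± 0.32 for Ifnar1 (edgeR adjusted p = 0.903).

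The stages within neutrophil-like cells were not the same in the groups. A cluster led by Retnlg and BC100530 made up 40.9% and 38.7% of the class in Ex, against 79.1% and 84.1% in Sed, and a cluster led by the granule genes Ltf and Camp 44.3% and 52.0% in Ex, against 20.1% and 14.8% in Sed. A further cluster, led by Camp and Fcnb, was 14.8% and 9.33% in Ex, against 0.765% and 1.10% in Sed, and with 22 and 7 cells in Ex, against 14 and 9 in Sed, it was not tested alone. Within the Retnlg cluster alone Stat2 was at 25.4 and 20.1 CPM in Ex, against 66.5 and 50.3 CPM in Sed, a log2 change of -1.32 ± 0.48 (edgeR adjusted p = 0.722), where 0 of 4602 genes passed edgeR's test. Irf9 had log2 changes of -0.53 ± 0.34 (edgeR adjusted p = 0.816) in the Retnlg cluster and -0.73 ± 0.32 (edgeR adjusted p = 0.472) in the Ltf cluster. Irf1 overlapped between the groups within the Retnlg cluster, at 239 and 130.4 CPM in Ex, against 195 and 104 CPM in Sed, and so did Ifnar1. None of the 4 calls of the whole class passed within either cluster, and Stat2 and Ifnar1 were under the low-count filter in the Ltf cluster. The summed level of 9 B cell genes in the class was 2606 and 218 CPM in Ex, against 14.8 and 75.2 CPM in Sed, and its part in these results was not tested.

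The promoters of the 3 transcription factor genes called in neutrophil-like cells are printed from RefSeq (build GRCm38.p6), 250 bases before to 50 bases after the annotated start, on the plus strand, 5' to 3'. Capitals mark matches to the ISRE, searched on both strands as GAAA, any 2 bases and GAAA, or to the GAS, searched as TTC, any 3 bases and GAA, which reads the same on both strands. No matches overlapped.
Stat2, chr10:128270248-128270547: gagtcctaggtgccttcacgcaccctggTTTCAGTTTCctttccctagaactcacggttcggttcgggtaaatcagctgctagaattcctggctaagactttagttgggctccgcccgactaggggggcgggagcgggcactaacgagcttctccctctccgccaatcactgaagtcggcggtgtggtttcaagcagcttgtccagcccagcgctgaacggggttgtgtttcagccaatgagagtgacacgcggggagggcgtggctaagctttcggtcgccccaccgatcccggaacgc
Irf9, chr14:55603735-55604034: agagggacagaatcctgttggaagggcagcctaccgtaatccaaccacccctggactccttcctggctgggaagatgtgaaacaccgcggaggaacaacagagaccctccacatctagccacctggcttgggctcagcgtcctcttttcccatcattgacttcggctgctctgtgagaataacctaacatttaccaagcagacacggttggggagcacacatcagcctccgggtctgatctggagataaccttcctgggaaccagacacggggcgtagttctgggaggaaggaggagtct
Irf1, chr11:53769764-53770063: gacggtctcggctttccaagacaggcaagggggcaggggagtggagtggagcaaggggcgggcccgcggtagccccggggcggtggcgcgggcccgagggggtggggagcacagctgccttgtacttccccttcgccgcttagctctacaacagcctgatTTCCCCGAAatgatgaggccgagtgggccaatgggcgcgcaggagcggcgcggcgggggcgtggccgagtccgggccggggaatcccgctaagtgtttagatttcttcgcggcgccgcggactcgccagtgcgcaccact
The Stat2 window held 1 ISRE match, on the minus strand and 222 bases before the start, and the Irf1 window 1 GAS match, 90 bases before the start. The Irf9 window held neither. It and the window of the second Irf9 start lie inside the gene span given above, which begins at 55603571. The bases before that span are in neither window. RefSeq lists a second start each for Irf9 and Irf1, whose windows held neither motif. Of 32851 promoters of this length 3.44% held the ISRE letters and 8.30% the GAS letters. Among the other members Ifnar1, Ifnar2 and Ifng each had 1 GAS match and Irf8 had 2. A match is a description of the letters and not of binding.

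In B-like cells 1 of 8 tested members fell, where 1.17% of all genes fell. Irf9 was at 47.8 and 34.6 CPM in Ex, against 89.2 and 67.4 CPM in Sed, a log2 change of -1.07 ± 0.22 (edgeR adjusted p = 0.0182). The class holds a cluster led by Fcer2a and Ms4a1, 64.0% and 77.7% of it in Ex, against 26.6% and 48.3% in Sed, and a cluster led by Ebf1 and Cd79a. Within the Fcer2a cluster Irf9 passed as well, at 46.2 and 32.5 CPM in Ex, against 87.0 and 79.7 CPM in Sed (-1.23 ± 0.24, edgeR adjusted p = 0.000959, 3.83% of genes called). Within the Ebf1 cluster it was at 51.0 and 43.6 CPM in Ex, against 90.3 and 51.7 CPM in Sed (-0.76 ± 0.28, edgeR adjusted p = 0.202). For the whole class it did not pass without Sed 1 (-0.83, edgeR adjusted p = 0.0709), without Ex 2 (-0.81, edgeR adjusted p = 0.198) or with sums thinned to the smallest library (-0.94, edgeR adjusted p = 0.0702), and it passed in the other 10 of 13 settings. The summed erythroid genes were at 3886 and 9.98 CPM in B-like cells in Ex, against 57.6 and 44.0 CPM in Sed, and without Ex 1 Irf9 passed (-1.32, edgeR adjusted p = 0.000546).

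Endothelial cells are not leukocytes, so the endothelial-like class is not one that the CD45+ selection was meant to keep. In it Irf8 was the 1 of 8 tested members that fell, where 5.63% of all genes fell. It was at 128 and 152 CPM in Ex, against 249 and 220.4 CPM in Sed, a log2 change of -0.90 ± 0.21 (edgeR adjusted p = 0.0185). A cluster led by Plpp3 and Cyp26b1 made up 38.9% and 52.7% of the class in Ex and none of it in Sed, and a cluster led by Serpina3n and Clca3a1 made up 0% and 0.467% in Ex, against 40.2% and 53.0% in Sed. In the cluster that both groups share, led by Clec4g and Fabp4, Irf8 was at 149 and 185 CPM in Ex, against 203 and 191 CPM in Sed (-0.32 ± 0.30, edgeR adjusted p = 0.581). The whole class passed in 9 of 13 other settings, and without Ex 1 it did not. The haemoglobin and other erythroid genes were at 4984 and 6591 CPM in the endothelial-like class in Ex, against 27.1 and 23.8 CPM in Sed, and their part in the difference was not tested.

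**Figure D5:**
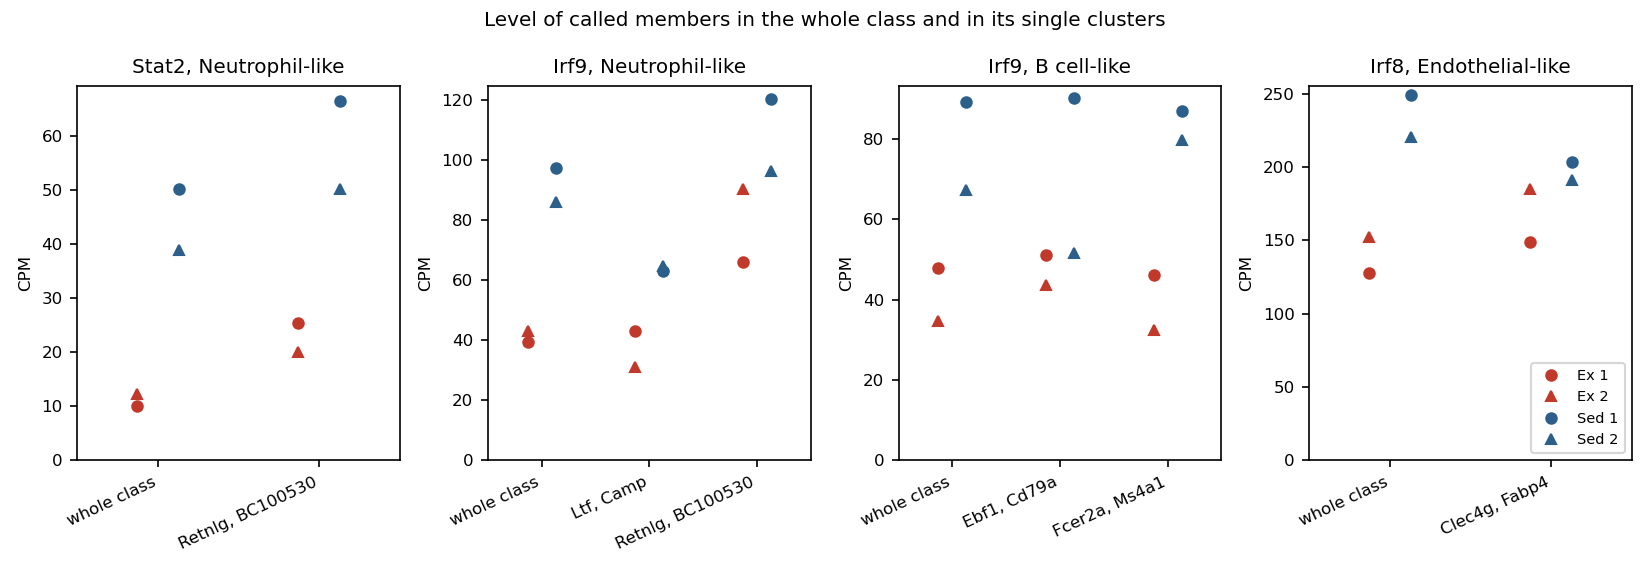
Level (CPM) of called members in the whole class and in its single clusters with at least 20 cells in every library, a point per library, Ex left of Sed. Irf9 in the B-like cluster led by Fcer2a and Ms4a1 keeps the gap of the whole class, and Irf8 in the endothelial-like cluster led by Clec4g and Fabp4 has Ex at 149 and 185 CPM, against 203 and 191 CPM in Sed.

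The Kupffer-like and classical monocyte-like cells and the cluster led by Cxcl9 and Cxcl10 gave no member call. In classical monocyte-like cells Irf1 came closest, at 162 and 147 CPM in Ex, against 98.4 and 68.5 CPM in Sed (0.88 ± 0.21, edgeR adjusted p = 0.0616), and it passed as higher in Ex in 8 of 13 other settings. Of this class 87.2% and 84.6% lay in a cluster led by Ace and Tppp3 in Ex, against 13.6% and 24.0% in Sed, the rest in a cluster led by Vcan and Chil3. Irf1 was higher in the Ace cluster than in the Vcan cluster in every library, and within the Ace cluster it was at 180 and 171 CPM in Ex, against 175 and 99.1 CPM in Sed, while within the Vcan cluster it was at 69.7 and 56.9 CPM in Ex, against 88.6 and 60.7 CPM in Sed. Stat2 was at 45.8 and 38.5 CPM in Ex, against 105 and 62.2 CPM in Sed within the Ace cluster, and at 52.3 and 32.5 CPM in Ex, against 116 and 54.2 CPM in Sed within the Vcan cluster. Neither Stat2 test passed (edgeR adjusted p = 0.215 and 0.597), and in both clusters the Ex libraries lay below the Sed libraries. For the whole class Stat2 passed in 3 of 13 other settings.

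Kupffer-like cells had Stat2 at 65.0 and 63.4 CPM in Ex, against 126 and 139 CPM in Sed, which did not pass (edgeR adjusted p = 0.275), and no setting of 13 made it pass. The class holds a cluster led by Cd163 and Clec4f, 10.4% and 25.2% of it in Ex, against 26.7% and 43.5% in Sed, and a cluster led by Marco and Vsig4. Stat2 was at 98.6 and 94.97 CPM in Ex, against 158 and 152 CPM in Sed, in the Cd163 cluster (-0.80 ± 0.28, edgeR adjusted p = 0.253), and at 48.5 and 30.5 CPM in Ex, against 51.2 and 69.3 CPM in Sed, in the Marco cluster (-0.42 ± 0.41, edgeR adjusted p = 0.799). Ifngr1 in the whole class was at 266 and 332 CPM in Ex, against 280 and 281 CPM in Sed, and Ifngr2 at 126 and 153 CPM in Ex, against 104 and 124 CPM in Sed. The cluster led by Cxcl9 and Cxcl10, 12.5% and 7.44% of kept cells in Ex, against 1.94% and 2.10% in Sed, had Stat2 the other way, at 136 and 122 CPM in Ex, against 82.8 and 91.5 CPM in Sed (0.57 ± 0.19, edgeR adjusted p = 0.182). It passed in none of 12 other settings and was 0.049 at resolution 2. The difference of these Ex effects on Stat2, cluster minus Kupffer-like, was 1.61 ± 0.29 on the log2 scale and passed its own test (edgeR adjusted p = 0.00836), where 1.42% of genes did. That difference was tested for the whole Kupffer-like class at resolution 1 and not for its single clusters. It was the only one of 100 differences of a member from Kupffer-like cells that passed. Stat2 differences of similar size did not pass in other classes. They were 1.70 ± 0.58 in NK-like cells (edgeR adjusted p = 0.184), 1.67 ± 0.75 in the Mmp9 cluster (edgeR adjusted p = 0.562) and 1.56 ± 0.57 in Treg-like cells (edgeR adjusted p = 0.531). Only neutrophil-like cells had a negative one, -1.21 ± 0.45 (edgeR adjusted p = 0.127).

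The summed erythroid genes were at 30.5 and 11.2 CPM in the Cxcl9 cluster in Ex, against 2899 and 3573 CPM in Sed, and at 13837 and 14.9 CPM in Kupffer-like cells in Ex, against 45.4 and 1385 CPM in Sed. The 9 B cell genes reached 4656 CPM in Kupffer-like cells of Ex 2. The part of this other RNA in the Stat2 difference was not tested.

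In NK-like cells Ifngr1 was at 637 and 914 CPM in Ex, against 336 and 511 CPM in Sed (0.76 ± 0.24, edgeR adjusted p = 0.164), with both Ex libraries higher, and it passed in 3 of 13 other settings. Type 1 dendritic-like cells had too few cells for the class test. Their cluster led by Xcr1 and Tlr3, with at least 20 cells in every library, had Irf1 at 96.2 and 146 CPM in Ex, against 41.2 and 55.3 CPM in Sed (1.18 ± 0.32, edgeR adjusted p = 0.112), and Irf8 at 2479 and 2619 CPM in Ex, against 2144 and 2446 CPM in Sed. Both genes were named here after their values were seen.

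Genes that answer to type I interferon fell in more classes than the members themselves. Of 24 listed targets, 20 of 21 tested fell in neutrophil-like cells (median log2 change -2.61, against -0.01 over all genes), 14 of 23 in endothelial-like cells (median -1.86), 12 of 24 in classical monocyte-like cells (median -1.64, where 0.89% of all genes fell) and 8 of 21 in B-like cells (median -1.80). These lists were chosen with earlier results of these data known, so their direction is no independent evidence. None rose in these classes. In the cluster led by Acod1 and Hcar2, which scored as neutrophils, 0 of 21 passed (median -0.89), where 4 of all 5152 genes tested fell. In neutrophil-like cells Ifit3, an antiviral effector, was at 24.8 and 16.4 CPM in Ex, against 416 and 301 CPM in Sed (-4.20 ± 0.32, edgeR adjusted p = 6.94e-12), and Ifit1, of the same family, at 29.4 and 45.2 CPM in Ex, against 503 and 447 CPM in Sed. In endothelial-like cells Isg15, a ubiquitin-like modifier, was at 50.8 and 57.2 CPM in Ex, against 322 and 307 CPM in Sed, and in B-like cells Rtp4 was at 12.9 and 7.48 CPM in Ex, against 71.4 and 65.3 CPM in Sed.

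Within single clusters the type I targets fell in 13 of 19 tested in the Ltf neutrophil cluster, 12 of 20 in the Fcer2a B-like cluster, 12 of 19 in the Clec4g endothelial-like cluster, 11 of 24 in the Ace monocyte cluster and 5 of 15 in the Xcr1 dendritic cluster. Of all genes 0.962%, 3.83%, 7.89%, 0.967% and 0.732% passed in these clusters in the same order. None of 21 passed in the Retnlg neutrophil cluster (median -1.23) and none of 24 in the Vcan monocyte cluster (median -1.19), where 0% and 0.021% of all genes passed. In Kupffer-like cells none of 24 passed, with a median log2 change of -1.15, and 0 to 11 passed over 13 other settings. In B-like cells 2 to 20 passed over these settings. Fits without Ex 1 or without Ex 2 leave 1 library in that group, so their counts are not given for the next 2 classes. Over 13 other settings the median log2 change of the type I targets was -1.90 to -1.03 in classical monocyte-like cells. In neutrophil-like cells it was -2.68 to -1.23. There 6 targets fell at resolution 0.5, where 21 of all 7481 genes tested fell.

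Among lymphocytes, 7 of 9 type I targets tested fell in ILC1-like cells (median -2.19), 7 of 11 in naive-like CD8 T cells (median -2.28) and 4 of 11 in the cluster led by Mmp9 and Cd40lg, while 1 of 16, Xaf1, fell in NK-like cells and 1 of 13, Rtp4, in Treg-like cells. Of all genes 0.355% fell in ILC1-like cells, 1.48% in naive-like CD8 T cells, 0.148% in the Mmp9 cluster and 0.193% in Treg-like cells. By DESeq2's Wald test none was called lower in ILC1-like cells and 1 in naive-like CD8 T cells. Of all genes it called 50 and 9 lower in these classes. That test can leave a gene without an adjusted p, which then counts as not called. How many of the listed targets this left out was not counted, so these low counts are no negative result. Irf7, the factor that amplifies type I interferon, was at 20.6 and 21.5 CPM in naive-like CD8 T cells in Ex, against 130 and 112 CPM in Sed, and at 47.7 and 22.9 CPM in ILC1-like cells in Ex, against 226 and 151 CPM in Sed. A separate lymphocyte cluster led by the type I targets Ifit1 and Rsad2 held 155 and 27 cells in Ex, against 8 and 5 cells in Sed, so cells high in these genes had been sorted away from the other lymphocyte classes, mostly in Ex 1. The part of this in the lymphocyte counts was not tested.

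Genes that answer mainly to interferon gamma did not move together. Of 24 listed, 9 of 15 tested fell and 1 rose in neutrophil-like cells, 4 of 20 fell in endothelial-like cells, and 3 of 22 rose and none fell in the cluster led by Cxcl9 and Cxcl10, where 0.521% of all genes rose. Cxcl9 rose in B-like cells, as 1 of 19 tested, where 80 of 8943 genes rose. It also rose in classical monocyte-like cells, as 1 of 21, where 126 of 10222 genes rose. Within the Ebf1 B-like cluster 1 listed gene rose, where 53 of 6201 genes passed, and none rose in the Fcer2a, Ace or Vcan cluster. Ciita and H2-Aa, 2 of 7 tested, rose in an unnamed cluster led by Gm26917 and Gm42418, where 10 of 961 genes rose. No listed gene fell in these classes. At resolution 0.5 none fell and 4 rose in neutrophil-like cells, where 8 of all 7481 genes tested rose and 21 fell. The median log2 change of the listed genes was then 0.61, against -1.20 at resolution 1. None fell or rose within the Retnlg or the Ltf neutrophil cluster, and within the Clec4g endothelial-like cluster 2 rose and none fell. In the Cxcl9 cluster 0 rose at resolution 2, where 3 of all 7792 genes tested rose. Over 12 other settings the median log2 change of the listed genes there was 0.03 to 0.91. The 3 listed genes that rose in this cluster at resolution 1 were Gbp2, Igtp and Gbp3. The guanylate-binding protein gene Gbp2 was at 523 and 822 CPM in Ex, against 201 and 224 CPM in Sed (1.66 ± 0.22, edgeR adjusted p = 0.00305). The GTPase gene Igtp was at 164 and 172 CPM in Ex, against 84.9 and 90.7 CPM in Sed. The gene that rose in neutrophil-like cells was the chemokine gene Cxcl10, at 7.34 and 47.3 CPM in Ex, against 3.43 and 2.68 CPM in Sed, and it was named after its values were seen. In Kupffer-like cells 1 of 20 rose, the MHC class II gene H2-Aa, at 2785 and 2399 CPM in Ex, against 226 and 424 CPM in Sed (3.03 ± 0.37, edgeR adjusted p = 0.0457), where 0.0921% of all genes rose and B cell genes also differed between the libraries as given above.

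Of 19 genes of interferon receptor signalling and its brakes, 5 of 18 tested fell in neutrophil-like cells, 3 of 17 in endothelial-like cells and none rose in any class. In neutrophil-like cells the first were Irf7, at 62.4 and 59.6 CPM in Ex, against 380 and 292 CPM in Sed, and Usp18, which turns Ifnar2 signalling down, at 9.18 and 6.16 CPM in Ex, against 64.7 and 45.2 CPM in Sed. The phosphatase gene Ptpn1 and the suppressor gene Socs3 were also among them. In endothelial-like cells Socs3 was at 115 and 109 CPM in Ex, against 376 and 664 CPM in Sed (-2.37 ± 0.25, edgeR adjusted p = 0.000327), beside Usp18 and Ptpn1. Irf7 and Usp18 are also on the list of type I targets.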

How the data were processed

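Single-cell 3' libraries of hepatic CD45+ cells were measured in 2 Ex and 2 Sed samples. The authors deposited 1 aggregated matrix of UMI counts, made with Cell Ranger 7.0.0 per the submitters' processing notes and 6.1.1 per the file header, on mm10/GRCm38. A barcode's library was read from the number after its hyphen, as the line of the aggregation table, which limits every comparison. The 22615 columns without a barcode were not used. Barcodes with under 200 genes or with over 10% of UMIs from mitochondria were dropped. Doublets were removed by a simulation score, taking 0.8% per 1000 cells, since its automatic threshold marked 0.024% to 4.85%. Cells were clustered with scanpy 1.11.5 and leidenalg 0.10.2 at resolution 1, without the members, and named from marker lists. Counts were summed per class and library and tested with edgeR 4.0.16 (TMM, quasi-likelihood, Benjamini-Hochberg over all genes of a class, threshold 0.05, R 4.3.3), with DESeq2 1.42.0 among the alternatives. The procedure was tested on simulated data. Exact binomial intervals and limits from 0 counts cover counting error only. Every member was named where called or highest, and at most 4 called genes of a list per class. Members and lists were chosen with earlier results of these data known. Single-cluster fits were added after seeing the data.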

Additional observations from a re-analysis of the deposited data

Results flagged for a closer look

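Stat2 had changes of opposite sign in an unnamed myeloid cluster and in Kupffer-like cells. In the cluster led by Cxcl9 and Cxcl10 Stat2 was at 136 and 122 CPM in Ex, against 82.8 and 91.5 CPM in Sed, and in Kupffer-like cells at 65.0 and 63.4 CPM in Ex, against 126 and 139 CPM in Sed. The difference of the log2 changes, cluster minus Kupffer-like, was 1.61 ± 0.29 (edgeR adjusted p = 0.00836 from an interaction term with the library as a block). Neither change passed on its own. The change in the cluster was 0.049 at resolution 2. Kupffer-like cells hold 2 clusters in different shares in Ex and Sed, with Stat2 changes of -0.80 and -0.42 within them, and the difference was not tested for each. The summed erythroid genes were at 30.5 and 11.2 CPM in the cluster in Ex, against 2899 and 3573 CPM in Sed, and at 13837 and 14.9 CPM in Kupffer-like cells in Ex, against 45.4 and 1385 CPM in Sed, and their part was not tested. Stat2 differences from Kupffer-like cells of 1.70 in NK-like cells, 1.67 in the Mmp9 cluster and 1.56 in Treg-like cells did not pass, nor did -1.21 in neutrophil-like cells.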

How the results depend on the processing

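The count of member and class pairs called higher in Ex was 0. It was 1 by DESeq2's Wald test, 3 with no low-count filter, 3 with doublets kept, 4 at resolution 0.5, 3 at resolution 2, 1 with sums thinned to the smallest library, and 0 to 4 when 1 library was left out. The count called lower was 6. It was 3 with doublets kept, 2 at resolution 0.5, 2 with thinned sums, and 3 to 7 when 1 library was left out (3 without Sed 1 and 3 without Ex 2). Over all genes 1404 were called higher, against 794 by DESeq2, 2360 with no filter, 859 and 882 at resolutions 0.5 and 2, and 777 (without Ex 2) to 3070 (without Sed 2) with a library left out. The 1623 called lower became 3160 with no filter, 1056 and 1027 at these resolutions, and 1029 (without Ex 2) to 3623 (without Sed 2) with a library left out.

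Replicate numbers 1 and 2 were not used as pairs in the main fits. The labels do not say that they pair the samples, and 2 libraries per group are too few to judge it. Deviations of same-numbered libraries correlated between -0.199 and 0.156 over classes. With the number as a block 2 pairs were called higher and 6 lower, and 1530 genes higher and 1992 lower.

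Irf1 in neutrophil-like cells turned to 0.47 at resolution 0.5, 0.44 at resolution 2 and 0.37 in the Retnlg cluster. In classical monocyte-like cells Irf1 turned to -0.29 in the Vcan cluster, and Ifngr1 to -0.043 and -0.0077 in the Ace and Vcan clusters. Ifng in the Mmp9 cluster was -0.36 with the stricter cell filter, -0.058 with doublets kept and -0.024 to 0.11 with a library left out. Ifng in ILC1-like cells was -0.18 to 0.49 with a library left out. The causes were not tested.

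The Mmp9 cluster's share of Ifng UMIs was 18.4% in Ex and 9.24% in Sed with the stricter filter, and 0.933% and 0.628% at resolution 2. Effector CD8 T-like cells held 29.0% in Sed with doublets kept, and NK-like cells 15.2% in Ex with the stricter filter and 14.1% at resolution 0.5. Ifng in the Mmp9 cluster was at 523 CPM with the stricter filter and 550 CPM at resolution 2, and Ifnar1 in pDC-like cells at 296 CPM with the stricter filter. Irf1 and Irf9 in the Acod1 cluster were at 696 and 144 CPM at resolution 2.

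The Ex libraries held 149 and 75 neutrophil-like cells, against 1831 and 819 in the Sed libraries, and no detection limit was computed.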
